A study of Mus musculus with 6 samples.

Results

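The 41 genes described here code for proteins of fatty acid uptake, the carnitine shuttle, β-oxidation, lipid droplets and ketone body use, with the peroxisome proliferator-activated receptors (PPAR) and their coactivators. They were taken by gene symbol from a table of 54532 genes, by a rule that uses no measured value, though the symbols were listed with earlier results of these data known. All 41 were among the 14866 genes with enough counts to be tested. RNA-seq was performed on whole hearts of 3-month-old C57BL/6 mice, with 3 hearts per genotype. The α1r/rα2s/s hearts carried the rodent Na/K-ATPase α1, which binds cardiotonic steroids (CTS) with low affinity, and the α1s/sα2s/s hearts carried an α1 made CTS-sensitive by amino acid substitutions. The CTS-sensitive α2s/s was shared by both groups, and the labels name no treatment. The study's methods describe males from a backcrossed line, with littermate controls and standard chow. For the RNA-seq hearts the paper calls the controls age-matched, and whether these 6 mice were littermates is not stated. The methods describe the substitutions as introduced into the mouse gene itself, with no restriction to cardiomyocytes. Read counts do not show the substitutions, so the genotype of each heart rests on its label.

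Fatty acids are the main fuel of the adult heart. They are released from lipoproteins by lipases at the vessel wall, cross the membrane through carriers, are activated to acyl-CoA and enter mitochondria as acylcarnitines, where β-oxidation cuts them to acetyl-CoA. Part of the supply passes through triglyceride in lipid droplets. PPARα, PPARδ and the PGC-1 coactivators switch on many of these genes when fatty acids are plentiful, and the heart also burns ketone bodies made by the liver.

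The libraries held 19309312 to 20470065 counts, and 21234 to 22515 genes had at least 1 count in a heart. The 10 cardiomyocyte markers summed to 55950 to 69770 CPM (counts scaled to a fixed library total) in α1r/rα2s/s hearts and 62230 to 67790 in α1s/sα2s/s hearts, so the tissue label held. Over 8 marker lists of cell types in or near the heart, no gene was called. The smooth muscle and pericyte list was the only list whose sums did not overlap (2635 to 2889 CPM against 2941 to 3033 CPM in α1s/sα2s/s hearts). It includes Des, a gene of cardiomyocytes too, at 1285, 1206 and 1468 CPM against 1529, 1599 and 1771 CPM in α1s/sα2s/s hearts. Des was its only gene with a positive log2 fold change (0.31), and the others ran from -0.58 (Cnn1) to -0.0012 (Rgs5). Mitochondrially encoded RNA took 23.9%, 23.4% and 24.4% of the counts in α1r/rα2s/s hearts 1 to 3 and 25%, 25.3% and 26% in α1s/sα2s/s hearts 1 to 3, with no overlap. Over all tested genes, α1s/sα2s/s heart 3 was the highest of the 6 hearts for 21.7% of genes and the lowest for 22.6%, against 13.8% to 19.2% highest and 14.4% to 18.3% lowest in the other hearts. CPM are scaled here by edgeR's TMM factors, RPKM are these CPM per kilobase of gene length, and a gene is called where the quasi-likelihood test of edgeR gave a p under 0.05 after adjustment over all 14866 genes.

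Of the 41 genes, 4 rose in α1s/sα2s/s hearts and none fell. The genes that rose were Pnpla2, the lipase that starts triglyceride breakdown, Slc27a1, a fatty acid transport protein, Plin2, a lipid droplet coat protein, and Ehhadh, a peroxisomal β-oxidation enzyme, by 1.41-fold to 1.57-fold. Of all tested genes, 0.78% were called higher and 0.659% called lower by the same rule. The mitochondrial β-oxidation enzymes lay a little above the controls without a call, and 3 of the 4 PPAR regulators lay below.

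**Figure D1:**
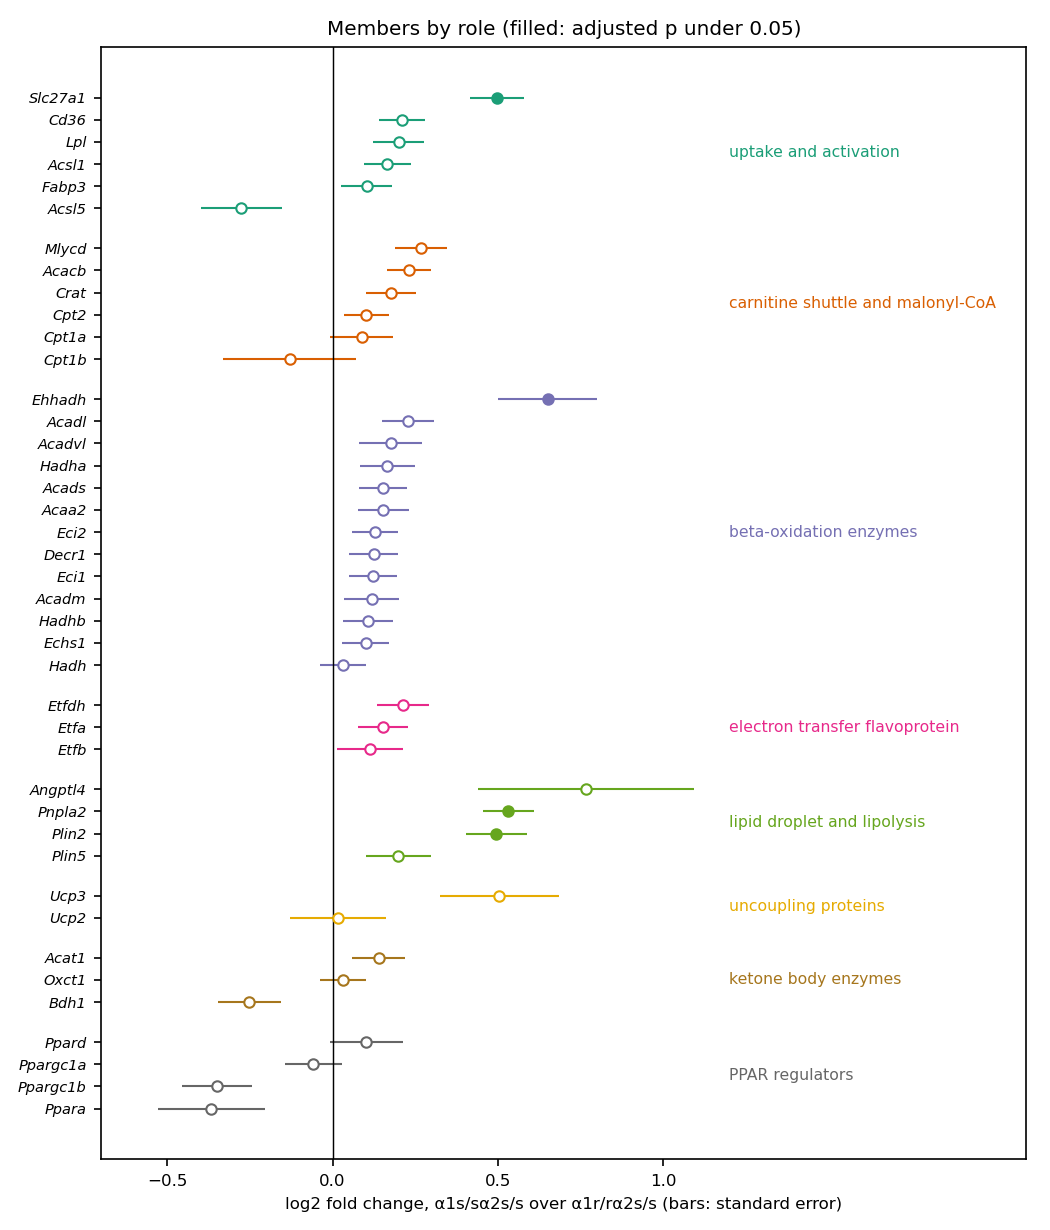
Log2 fold change of each of the 41 genes (x axis, α1s/sα2s/s over α1r/rα2s/s hearts, n = 3 per genotype; bars are standard errors), grouped by role on the y axis. The 4 filled points, Slc27a1, Ehhadh, Pnpla2 and Plin2, had an adjusted p under 0.05, and 35 of the 41 points lie to the right of 0.

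The bases upstream of the 4 genes that rose, and of Ucp3, are shown with the letters searched in them. Ucp3, which was not called, is shown because its window held the motif at a pair of places. RefSeq windows on GRCm38.p6 were matched for 33 of the 41 genes, each from 250 bases before to 50 after a start, and the 250 bases before the start are printed in the gene's own direction. Capitals mark AGGTCA or its reverse complement, the core motif of nuclear receptors.
Pnpla2, chr7:141454938-141455187, plus strand: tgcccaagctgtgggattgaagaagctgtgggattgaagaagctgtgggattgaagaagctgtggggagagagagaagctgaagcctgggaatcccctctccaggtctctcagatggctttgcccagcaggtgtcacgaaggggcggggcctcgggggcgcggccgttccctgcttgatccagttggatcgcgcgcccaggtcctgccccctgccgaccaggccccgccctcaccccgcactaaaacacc
Slc27a1, chr8:71568621-71568870, plus strand, the first of 3 RefSeq starts: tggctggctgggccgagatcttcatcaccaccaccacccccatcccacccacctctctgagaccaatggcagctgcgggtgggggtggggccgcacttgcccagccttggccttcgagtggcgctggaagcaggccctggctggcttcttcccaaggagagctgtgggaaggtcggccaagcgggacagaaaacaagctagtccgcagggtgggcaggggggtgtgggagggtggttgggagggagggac
Plin2, chr4:86670060-86670309, minus strand: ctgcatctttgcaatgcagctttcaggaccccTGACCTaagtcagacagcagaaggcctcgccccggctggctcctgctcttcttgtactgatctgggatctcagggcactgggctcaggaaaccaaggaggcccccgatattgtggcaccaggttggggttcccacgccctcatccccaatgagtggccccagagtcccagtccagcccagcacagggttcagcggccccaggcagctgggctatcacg
Ehhadh, chr16:21787835-21788084, minus strand: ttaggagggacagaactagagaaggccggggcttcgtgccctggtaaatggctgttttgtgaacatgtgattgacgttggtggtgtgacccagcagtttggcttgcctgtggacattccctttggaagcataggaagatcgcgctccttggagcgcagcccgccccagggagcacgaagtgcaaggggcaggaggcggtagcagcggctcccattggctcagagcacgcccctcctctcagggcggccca
Ucp3, chr7:100472741-100472990, plus strand: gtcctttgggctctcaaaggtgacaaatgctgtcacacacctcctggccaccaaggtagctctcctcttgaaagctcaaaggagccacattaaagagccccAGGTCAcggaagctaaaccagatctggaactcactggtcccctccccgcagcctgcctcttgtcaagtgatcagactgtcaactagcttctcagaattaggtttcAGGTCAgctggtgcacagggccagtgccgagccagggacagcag

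The Plin2 window held the motif once, on the opposite strand, beginning 218 bases before the start, and the Ucp3 window held it at 149 and 44 bases before the start. No match was found in the windows of Pnpla2, Slc27a1 and Ehhadh. Among the 33 genes with a window, 9 had the motif (27.3%), namely Cd36, Cpt1a, Acacb, Acadvl, Acadm, Echs1, Plin2, Plin5 and Ucp3. The share over all 27025 genes with a RefSeq window was 18.1%. By window, 26.3% of the 38 member windows and 16.3% of all 32851 windows held it. The DR1 element searched, the letters AGGNCA in direct repeat with 1 base between, is the type of site bound by PPAR with its partner RXR and overlaps the core motif. It was in no member window and in 0.381% of all windows. The letters TCAAGGTCA, the type of site bound by estrogen-related receptors, which contain the core motif, were likewise in no member window and in 0.423% of all. Both strands were searched, and the median GC content was 60.7% in member windows against 52.7% in all windows. These matches are descriptions of the letters in short windows and show no binding.

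Uptake and activation genes had the highest summed CPM of any role in the set. By level per length, Fabp3, Lpl and Cd36 ranked 1, 2 and 3 of the 41 genes. Acsl1, Slc27a1 and Acsl5 ranked 17, 28 and 39. Slc27a1 (ENSMUSG00000031808, chromosome 8, 71568882 to 71587302, GRCm38) codes for a transport protein that couples fatty acid entry to activation. Its level was 146.8, 124.4 and 138.1 CPM in α1r/rα2s/s hearts 1 to 3 and 190.7, 176.9 and 210.5 CPM in α1s/sα2s/s hearts 1 to 3. Each α1s/sα2s/s heart lay above every α1r/rα2s/s heart, and the log2 fold change was 0.50 (SE 0.08, adjusted p = 0.0073, edgeR). Because whole tissue was used, more cells that express a gene and more RNA per cell cannot be told apart, here and in every result below.

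Fabp3, which carries fatty acids through the cytosol of cardiomyocytes, had the highest level of the 41 genes per length, 3603 ± 141.8 RPKM (SD, n = 3) in α1r/rα2s/s and 3871 ± 312.4 RPKM in α1s/sα2s/s hearts. Its values were 3098, 2918 and 2879 CPM against 3189, 2927 and 3441 CPM, which overlap (log2 fold change 0.10, SE 0.08, adjusted p = 0.579). Cd36, the main fatty acid translocase, was at 2154, 2070 and 1966 CPM in α1r/rα2s/s hearts. It was at 2362, 2347 and 2456 CPM in α1s/sα2s/s hearts, with no overlap and a log2 fold change of 0.21 (SE 0.07) that missed the threshold (adjusted p = 0.164). Lpl, the lipase that frees fatty acids from lipoproteins, and Acsl1, the main acyl-CoA synthetase of heart, also did not overlap between genotypes, at log2 fold changes of 0.20 (SE 0.08) and 0.17 (SE 0.07). Acsl5, another acyl-CoA synthetase, was lower without overlap, at 15.83 ± 1.501 CPM (SD, n = 3) against 19.16 ± 2.584 CPM (adjusted p = 0.317). Summed over the 6 genes, this group had 12500 ± 252.4 CPM in α1r/rα2s/s and 14160 ± 749.1 CPM in α1s/sα2s/s hearts.

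The carnitine shuttle carries acyl groups into mitochondria, and malonyl-CoA restrains its first step. None of the 6 genes of this group was called. Acacb, which makes the malonyl-CoA that inhibits the shuttle, had the smallest p, at 370.8, 358.6 and 390.3 CPM in α1r/rα2s/s hearts against 447.5, 425.1 and 442.1 CPM in α1s/sα2s/s hearts. Mlycd, which degrades malonyl-CoA, was at 109.9, 112.3 and 106.5 CPM against 131.3, 118.3 and 145.9 CPM. Both of these genes with opposite roles were higher in every α1s/sα2s/s heart, with log2 fold changes of 0.23 (SE 0.07, adjusted p = 0.118) and 0.27 (SE 0.08, adjusted p = 0.124).

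Crat, which buffers acetyl-CoA as acetylcarnitine, was level with Cpt2 as the most abundant of the group, at 81.59 and 81.55 RPKM over all hearts, and Cpt2 was the higher of the pair in α1r/rα2s/s hearts. Crat was at 434.6, 381.7 and 421.3 CPM against 482.8, 435.1 and 482.3 CPM. These did not overlap, and the log2 fold change was 0.18 (SE 0.08, adjusted p = 0.29). Cpt2, the inner membrane transferase, was at 191.8, 186.5 and 186 CPM against 214.2, 191.5 and 199.8 CPM, which overlap at their edges (log2 fold change 0.10, SE 0.07, adjusted p = 0.529). Cpt1a, the outer membrane transferase typical of liver, was at 72.32 ± 8.756 against 76.87 ± 8.114 CPM. Cpt1b, the transferase typical of muscle, had the lowest level of the 41 genes, with 162, 103 and 110 counts against 120, 107 and 97 counts. Of its exon bases, 2744 (81.4%) are shared on the same strand with the annotated readthrough gene Gm44502, which had 0 or 1 counts in each heart. How reads on both genes were counted is not given in the sources used here, so its level, and the 90.28% ± 2.427 (SD, n = 3) share of Cpt1a in the sum of both RPKM in α1r/rα2s/s hearts, are uncertain.

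The 13 β-oxidation enzymes of the set showed a small difference in one direction. Their log2 fold changes ran from 0.03 to 0.65 with a median of 0.13, all above 0. Of all tested genes, 48.4% were above 0, and of those above 100 CPM, 71.2%. Of the 13 enzymes, 1 was called. That gene was Ehhadh (ENSMUSG00000022853, chromosome 16, 21761287 to 21787807), the bifunctional enzyme of peroxisomes and the least abundant of the group. It was at 24.92, 25.08 and 17.38 CPM in α1r/rα2s/s hearts and 37.58, 27.51 and 40.77 CPM in α1s/sα2s/s hearts. The nearest hearts of the groups were 25.08 and 27.51 CPM, and the log2 fold change was 0.65 (SE 0.15, adjusted p = 0.0468). The call was lost without any single heart other than α1s/sα2s/s heart 2, with adjusted p from 0.0179 to 0.164 when 1 heart was left out.

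Acaa2, the thiolase that performs the last step of the mitochondrial spiral, had the highest level of the group, 503.8 RPKM over all hearts. It was at 764, 674 and 730.3 CPM in α1r/rα2s/s hearts and 819.1, 739.4 and 852.9 CPM in α1s/sα2s/s hearts, which overlap (log2 fold change 0.15, SE 0.08, adjusted p = 0.383). Acadl, the long-chain acyl-CoA dehydrogenase, was at 917, 816.4 and 968.1 CPM against 1088, 993.6 and 1084 CPM, with no overlap and the smallest p of the mitochondrial enzymes (log2 fold change 0.23, SE 0.08, adjusted p = 0.182). The short-chain dehydrogenase Acads, the enoyl-CoA hydratase Echs1 and the isomerase Eci2 also did not overlap, at log2 fold changes of 0.15, 0.10 and 0.13. The remaining genes overlapped between genotypes. They were the very-long-chain and medium-chain dehydrogenases Acadvl (0.18) and Acadm (0.12), and both subunits of the trifunctional protein, Hadha (0.17) and Hadhb (0.11). They also included the hydroxyacyl-CoA dehydrogenase Hadh (0.03), the isomerase Eci1 (0.12) and the dienoyl-CoA reductase Decr1 (0.12).

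The summed level of the 13 enzymes was 9009, 7911 and 8989 CPM in α1r/rα2s/s hearts and 9500, 8969 and 10080 CPM in α1s/sα2s/s hearts. α1r/rα2s/s heart 2 was low and α1s/sα2s/s heart 3 was high, while α1s/sα2s/s heart 2 lay below 2 of the 3 α1r/rα2s/s hearts. Those same hearts had the lowest and the highest mitochondrial share of counts, 23.4% and 26%, and its part in the result was not tested. Without α1r/rα2s/s heart 2 the median log2 fold change of the 13 fell to 0.08, and without α1r/rα2s/s heart 1 it was 0.17, the lowest and highest of the 6 values with 1 heart left out. The count of genes above 0 was then at least 12.

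The electron transfer flavoproteins pass electrons from the dehydrogenases to the respiratory chain. Etfa, the α subunit, was the most abundant of the 3 per gene length, at 346.7 RPKM over all hearts against 90.79 RPKM for Etfdh, although Etfdh had slightly more CPM. Etfa was at 615.4, 573 and 619.7 CPM in α1r/rα2s/s hearts and 665.3, 618.8 and 725.3 CPM in α1s/sα2s/s hearts, with α1s/sα2s/s heart 2 just under α1r/rα2s/s heart 3. Etfdh, the membrane oxidoreductase, was at 659.4, 577.2 and 657.6 CPM against 714.7, 691 and 788.5 CPM, with no overlap. Their log2 fold changes were 0.15 (SE 0.08, adjusted p = 0.377) and 0.21 (SE 0.08, adjusted p = 0.22). Etfb, the β subunit, was at 57.8 ± 5.579 against 62.48 ± 8.674 CPM (SD, n = 3), and 58.2% of its exon bases overlap other genes on the same strand, which leaves its level uncertain.

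Lipid droplet and lipolysis genes showed the largest differences of the set, with a median log2 fold change of 0.51 over 4 genes. Over 20 further tested genes of these functions, outside the set, the median was 0.15, with 13 above and 7 below 0. Pnpla2 (ENSMUSG00000025509, chromosome 7, 141455198 to 141460743), the adipose triglyceride lipase, had the smallest p of the 41 genes and the highest level of the group, 98.01 RPKM over all hearts. It was at 244.8, 224.2 and 257.1 CPM in α1r/rα2s/s hearts and 354.1, 324 and 371.7 CPM in α1s/sα2s/s hearts. The groups were well separated, and the log2 fold change was 0.53 (SE 0.08, adjusted p = 0.00293). Leaving out any 1 heart kept the call, with adjusted p from 0.00452 to 0.0169.

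Plin2 (ENSMUSG00000028494, chromosome 4, 86648386 to 86670060), which coats lipid droplets and increases with stored lipid, was at 61.64, 69.51 and 52.1 CPM against 88.32, 81.59 and 88.59 CPM. No heart overlapped, and the log2 fold change was 0.50 (SE 0.09, adjusted p = 0.019). The call was lost without α1r/rα2s/s heart 1, α1s/sα2s/s heart 1 or α1s/sα2s/s heart 3, with an adjusted p of at most 0.0626. Plin5, the droplet coat protein of oxidative tissues that tethers droplets to mitochondria, was at 91.2 ± 8.068 CPM against 104.7 ± 15.55 CPM (SD, n = 3) and overlapped (log2 fold change 0.20, SE 0.10, adjusted p = 0.373). Angptl4, a secreted inhibitor of lipoprotein lipase and a known PPAR target, had the largest log2 fold change of the 41 genes, 0.77, with an SE of 0.33. Its values were 24.97, 22.64 and 8.189 CPM against 49.7, 23.78 and 21.63 CPM, so a single low α1r/rα2s/s heart and a single high α1s/sα2s/s heart stood apart while the other 4 hearts lay together (adjusted p = 0.297). The summed level of the 4 genes was 412.9 ± 11.44 CPM (SD, n = 3) in α1r/rα2s/s and 572.5 ± 45.93 CPM in α1s/sα2s/s hearts.

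Adipocytes express Pnpla2, Plin2 and Angptl4 too, and fat attached to a heart could enter a whole-heart sample. The 10 adipocyte markers summed to 6.581 to 11.32 CPM in α1r/rα2s/s hearts and 6.839 to 23.43 CPM in α1s/sα2s/s hearts, which overlap. Of these, 6 could be tested and none was called, but all 6 had log2 fold changes above 0, from 0.43 (Car3) to 1.32 (Plin1), and Ucp1 had no count in any heart. Plin1, the droplet coat protein of adipocytes, had 10, 6 and 4 counts against 23, 12 and 13 counts, with no overlap (SE 0.53 on the log2 scale, adjusted p = 0.266). Adipoq had 12, 13 and 1 counts in α1r/rα2s/s hearts against 25, 9 and 13 counts in α1s/sα2s/s hearts. The most Adipoq was in α1s/sα2s/s heart 1, the highest in Angptl4 and Ucp3, and the least in α1r/rα2s/s heart 3, the lowest in both. Cfd and Car3, the most abundant of these markers, were also highest in α1s/sα2s/s heart 1, at 7.894 and 8.291 CPM. Their other α1s/sα2s/s hearts lay within or below the α1r/rα2s/s range (Cfd 1.841 and 1.919 against 2.311 to 3.583 CPM, Car3 2.788 and 2.178 against 2.053 to 4.825 CPM). The part of adipocyte RNA in these values was not tested.

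**Figure D2:**
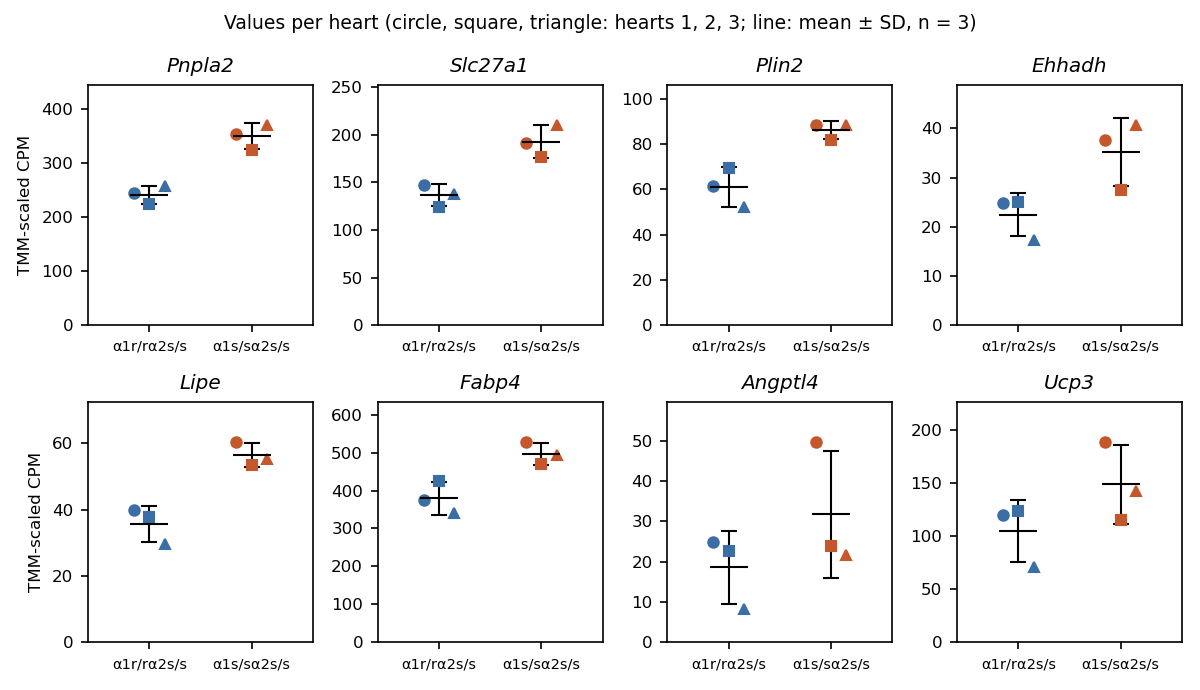
TMM-scaled CPM (y axes, each from 0) in each heart for the 4 called genes in the upper row and for Lipe, Fabp4, Angptl4 and Ucp3 in the lower row; circles, squares and triangles are hearts 1, 2 and 3 of each genotype, and lines are mean ± SD (n = 3). The genotypes do not overlap for Pnpla2, Slc27a1, Plin2, Ehhadh, Lipe and Fabp4, and overlap for Angptl4, where α1r/rα2s/s heart 3 was at 8.189 CPM and α1s/sα2s/s heart 1 at 49.7 CPM, and for Ucp3.

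Uncoupling proteins are carriers of the inner mitochondrial membrane. Ucp3, the form of heart and skeletal muscle, was at 119.8, 123.3 and 70.84 CPM in α1r/rα2s/s hearts and 188.5, 115 and 142.1 CPM in α1s/sα2s/s hearts. The groups overlap through α1s/sα2s/s heart 2, and the log2 fold change of 0.50 (SE 0.18) was not called (adjusted p = 0.201). Ucp2, the widely expressed form, was at 39.58, 66.45 and 43.66 CPM against 52.13, 53.81 and 45.54 CPM, with a log2 fold change of 0.02 (SE 0.15). The share of Ucp2 in the summed RPKM of both was 18.01% ± 4.555 against 13.65% ± 3.289 (SD, n = 3; exact permutation test, two-sided, p = 0.2).

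None of the 3 ketone body enzymes was called. Oxct1, the enzyme that activates acetoacetate and limits ketone use outside the liver, was the most abundant, at 1559, 1474 and 1650 CPM in α1r/rα2s/s hearts and 1565, 1609 and 1616 CPM in α1s/sα2s/s hearts. Its log2 fold change was 0.03 (SE 0.07, adjusted p = 0.88). Bdh1, which oxidises β-hydroxybutyrate, was at 87.66, 98.69 and 102.8 CPM against 69.01, 84.01 and 89.88 CPM. Its highest α1s/sα2s/s heart exceeded its lowest α1r/rα2s/s heart, and the log2 fold change was -0.25 (SE 0.09, adjusted p = 0.225). Acat1, the mitochondrial acetoacetyl-CoA thiolase, was at 604.1 ± 49.61 against 665.5 ± 52.08 CPM (SD, n = 3). On the strand opposite Oxct1, BC037032 shares 467 bases with its exons (12.6%) and was called lower (log2 fold change -1.09, SE 0.19, adjusted p = 0.0126), with 198, 156 and 165 counts against 88, 84 and 59 counts. This transcript is not one of the 41 genes and was chosen after its values were seen. Whether strand was used in counting is not stated, so reads of the overlapping bases cannot be assigned. The same limit holds for Acadvl, Fabp3 and Bdh1, which share 42.9%, 19.6% and 13.7% of their exon bases with genes on the opposite strand. Of the 41 genes, 14 share exon bases with another gene on either strand.

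The PPAR regulators were low in abundance and none was called, though Ppara was called lower where no low-count filter was used. Ppara, the receptor that drives fatty acid oxidation genes in heart, was at 31.7, 30.29 and 48.68 CPM in α1r/rα2s/s hearts and 23.24, 32.72 and 29.88 CPM in α1s/sα2s/s hearts. The groups overlap and α1r/rα2s/s heart 3 stood above the rest (log2 fold change -0.37, SE 0.16, adjusted p = 0.315). Ppard, the widely expressed receptor, was at 20.91, 25.13 and 23.41 CPM against 21.85, 27.93 and 24.79 CPM (log2 fold change 0.10, SE 0.11, adjusted p = 0.722).

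Ppargc1a, which codes for the coactivator PGC-1α, was at 99.26, 101.2 and 122.3 CPM against 95.87, 110.2 and 103.9 CPM (log2 fold change -0.06, SE 0.09, adjusted p = 0.812). Ppargc1b, which codes for PGC-1β, was at 24.21, 28.57 and 30.6 CPM against 23.04, 21.73 and 20.64 CPM. It was the only regulator without overlap, lower in each α1s/sα2s/s heart, with a log2 fold change of -0.35 (SE 0.11) and an adjusted p of 0.129. The 4 genes summed to 195.4 ± 26 CPM in α1r/rα2s/s and 178.6 ± 14.31 CPM in α1s/sα2s/s hearts (SD, n = 3). The 4 log2 fold changes had a median of -0.20, against 0.14 over all 41 genes, and 1 of 4 was above 0. Over 21 further tested PPAR regulators, outside the set, the median was 0.04, with 12 above and 9 below 0.

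**Figure D3:**
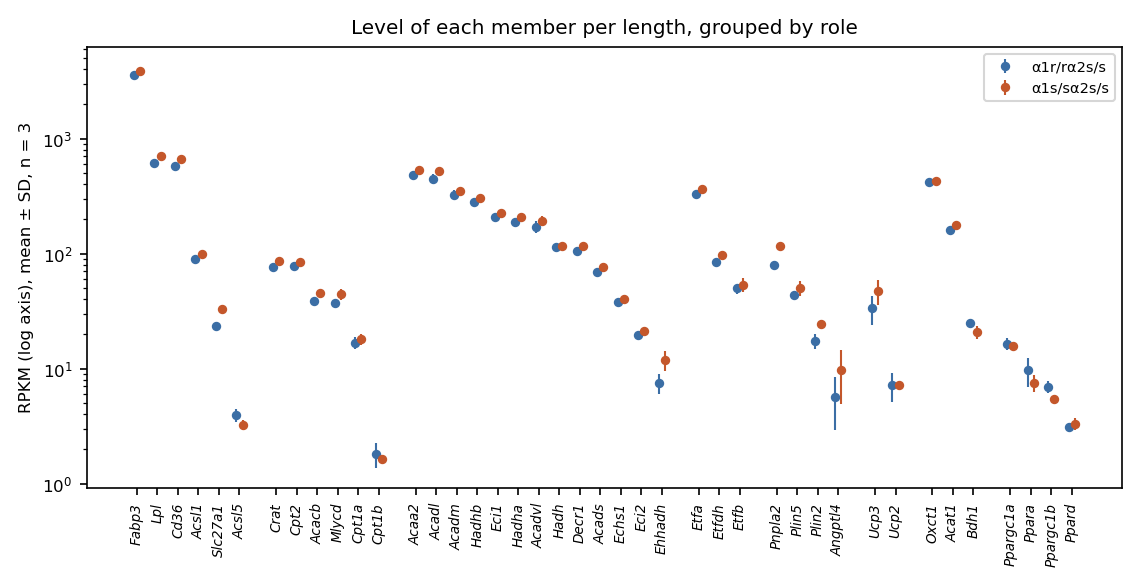
Level per gene length of the 41 genes (y axis, RPKM, log axis; points are means and bars SD, n = 3 hearts per genotype), grouped by role and ordered by level within each role on the x axis. Levels run from Cpt1b, at 1.72 RPKM over all hearts, to Fabp3, at 3737 RPKM, and the genotypes differ by far less than the genes do. The Cpt1b level is uncertain because most of its exon bases are shared with another gene.

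Levels per length spanned from 1.72 RPKM (Cpt1b, uncertain because of its shared exon bases) to 3737 RPKM (Fabp3) over all hearts. After Fabp3 came Lpl at 654.4 and Cd36 at 620 RPKM, then Acaa2 at 503.8, Acadl at 487.7 and Oxct1 at 426.6 RPKM. Neighbours in this order, such as Acaa2 and Acadl, had SDs within a genotype of 26.63 to 38.49 RPKM and did not separate beyond them. The share of 1 form in a pair of related proteins was compared for 5 pairs, those of Cpt1 and Ucp above included. Plin2 made up 28.39% ± 1.136 of the summed RPKM of Plin2 and Plin5 in α1r/rα2s/s and 33.02% ± 2.433 in α1s/sα2s/s hearts (SD, n = 3; exact permutation test, two-sided, p = 0.1). The share of Ppargc1b in both PGC-1 genes was 29.92% ± 1.647 against 25.9% ± 2.184, and that of Acsl5 in Acsl1 and Acsl5 was 4.267% ± 0.7294 against 3.171% ± 0.3812 (SD, n = 3; exact permutation test, p = 0.1 for each). All 3 shares did not overlap between genotypes, but 0.1 is the smallest p that 3 hearts against 3 allow, and it became 0.167 after adjustment over the 5 shares compared.

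Across the set, 35 of 41 log2 fold changes were above 0, with a median of 0.14 and a range from -0.37 to 0.77, against 48.4% above 0 and a median of -0.01 over all tested genes. Abundant genes of any kind leaned the same way. Of the 28 members above 100 CPM, 27 were above 0 with a median of 0.15, against 71.2% and 0.07 for all 1345 tested genes above 100 CPM. Without overlap, 15 members were higher and 2 lower in α1s/sα2s/s hearts, where 10% and 9.98% of all tested genes did so. Of the 28 members above 100 CPM, 13 were higher without overlap and 0 lower, against 339 and 101 of the 1345 genes above 100 CPM. The edgeR fit called 2 of these 28 members higher, against 34 of the 1345 genes. At an unadjusted p under 0.05, 15 members were higher and 4 lower, against 7.19% and 7.27% of all tested genes. DESeq2, used here as an alternative, called 9 members higher and none lower, against 2.23% and 1.42% of the 11038 genes it adjusted. The members added were Lpl, Cd36, Acacb, Mlycd and Acadl, with DESeq2 adjusted p of 0.0481, 0.00878, 0.00619, 0.0404 and 0.0343. With the low-count filter left out of the edgeR fit, another set of 9 members was called, 8 higher and 1 lower, against 1.15% and 1.04% of the 28183 genes then tested. The members added were Mlycd and Acadl, Angptl4 and Ucp3 (adjusted p = 1.25e-09 and 6.71e-08), whose groups overlap, and Ppara, which was called lower (adjusted p = 0.0199). Because of how the genes were chosen, no test of the set as a whole was made.

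**Figure D4:**
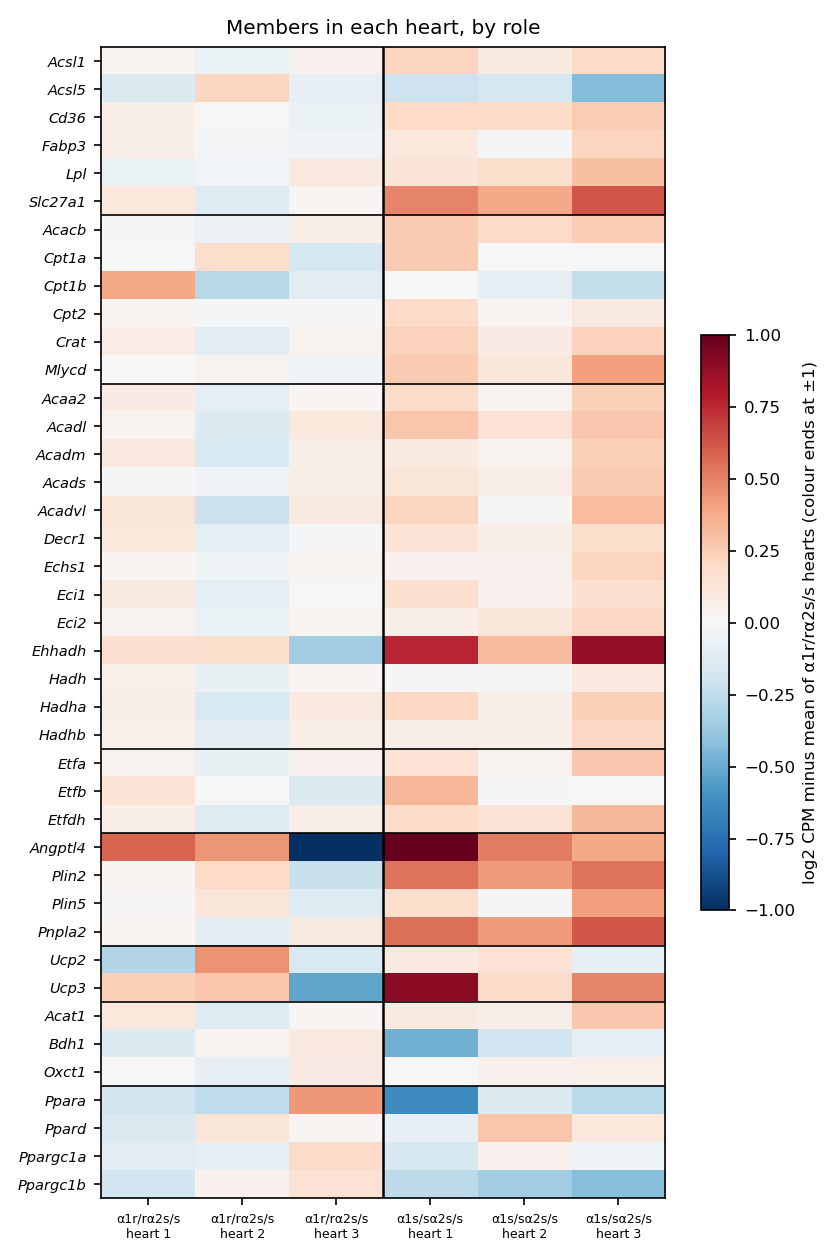
Log2 CPM of each gene in each heart minus the mean of the α1r/rα2s/s hearts (colour, ending at 1 in either direction); rows are the 41 genes by role and columns the 6 hearts. α1r/rα2s/s heart 2 is the palest to blue column among β-oxidation enzymes and α1s/sα2s/s heart 3 the most red, with the lowest value in 22 and the highest in 23 of the 41 genes, respectively.

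The pattern by heart was uneven. α1r/rα2s/s heart 2 had the lowest of the 6 values for 22 of the 41 genes, where it was lowest for 18.3% of all tested genes, and α1s/sα2s/s heart 3 had the highest for 23 of the 41. α1r/rα2s/s heart 3 was the lowest for 11 genes, among them Angptl4, Ucp3, Ehhadh and Plin2, and α1s/sα2s/s heart 1 was the highest for 9. Within a genotype most genes were steady: the larger of the within-genotype ratios of the highest to the lowest heart had a median of 1.19 over the 41 genes and 1.3 over all tested genes. It passed 1.5 for 12.2% of the 41 genes and 32.3% of all. The 5 genes past it were Angptl4, at 3.05 in α1r/rα2s/s and 2.3 in α1s/sα2s/s hearts, Ucp3 (1.74 and 1.64), Ucp2 (1.68 in α1r/rα2s/s hearts), Ppara (1.61) and Cpt1b (1.57). Of the 4 calls, 2 to 4 held when any 1 heart was left out, and those of Pnpla2 and Slc27a1 held each time.

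Other genes of the same pathways were read from a list of 122 genes, of which 103 were tested. Of these, 7 rose and 1 fell, where 0.78% and 0.659% of all tested genes did. Of 11 genes listed here as PPAR targets outside the pathway, 5 could be tested and 3 of these rose. The others tested, Txnip and Tsc22d3, were not called. Whether each of these genes is a PPAR target in heart was not tested. The 122 genes were listed with earlier results of these data known, so these counts only describe them. Among lipid droplet and lipolysis genes 2 of 20 rose and 1 fell, and 1 of 17 uptake genes rose. None of the 11 carnitine shuttle, 23 β-oxidation and 21 PPAR regulator genes of this list was called. Unlike the 13 β-oxidation enzymes above, these 23 β-oxidation genes were mixed in direction, with 14 log2 fold changes above 0, 9 below and a median of 0.06. The 11 carnitine shuttle genes had 4 above and 7 below 0, with a median of -0.06. For the 17 uptake genes these values were 14, 3 and 0.09. The median log2 fold change of the 103 genes was 0.06.

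Acot1 and Acot2, thioesterases that release fatty acids from acyl-CoA, rose by 1.22 (SE 0.14, adjusted p = 0.000626) and 0.68 (SE 0.10, adjusted p = 0.00246) on the log2 scale. Acot1 was at 20.63, 16.62 and 15.93 CPM in α1r/rα2s/s hearts and 42.1, 32.4 and 49.01 CPM in α1s/sα2s/s hearts. Acot2 was at 88.61, 79.54 and 76.06 CPM against 134.2, 111 and 147.1 CPM. Neither overlapped, though their sequences are close and how reads were split between them is uncertain.

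Pdk4, the kinase that blocks pyruvate oxidation when fat is used, was at 998.9, 1126 and 454.5 CPM against 2114, 1351 and 2123 CPM. Its log2 fold change was 1.12 (SE 0.24, adjusted p = 0.0333), α1r/rα2s/s heart 3 was low, and DESeq2 did not call it (adjusted p = 0.0962).

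Lipe, the hormone-sensitive lipase that acts after Pnpla2, was at 39.72, 37.74 and 29.59 CPM against 60.37, 53.29 and 55.34 CPM (log2 fold change 0.66, SE 0.10, adjusted p = 0.00546). Fabp4, the fatty acid binding protein of adipocytes and capillary endothelium, was at 374.3, 425.8 and 339.6 CPM against 528.1, 469.7 and 493 CPM (log2 fold change 0.39, SE 0.09, adjusted p = 0.0358). The 10 endothelial markers summed to 1211 to 1413 CPM in α1r/rα2s/s and 1077 to 1301 CPM in α1s/sα2s/s hearts, with none called. Their part, like that of adipocyte RNA, was not tested.

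Gpam and Lpin1 act in triglyceride synthesis and moved apart. Gpam, which adds the first acyl group to glycerol-3-phosphate, was at 249.8, 237.4 and 211.9 CPM against 306, 284.1 and 291.1 CPM (log2 fold change 0.33, SE 0.08, adjusted p = 0.0394). Lpin1, a phosphatidate phosphatase that also acts with PPARα and PGC-1α in the nucleus, was the only one to fall, at 177.7, 168.3 and 186.7 CPM against 141.6, 148.1 and 139.3 CPM (log2 fold change -0.31, SE 0.07, adjusted p = 0.0358). Neither call held when any 1 heart was left out, with adjusted p from 0.0528 to 0.15. The Fabp4 call held in 1 of 6 such fits and that of Pdk4 in 3, whereas Lipe, Acot1 and Acot2 held in all 6.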

How the data were processed

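Total RNA from 6 hearts, 3 per genotype as labelled, was sequenced by a company on an Illumina system. The submitters' processing notes name fastp, STAR, featureCounts and mm10, without versions or a strand setting. The authors deposited raw counts per gene, without normalization. They also deposited their own DESeq2 comparison (means, fold changes, p-values), which was not used.

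Counts were fitted in R 4.3.3 with edgeR 4.0.16 (TMM, filterByExpr with minimum count 10 and minimum total 15, quasi-likelihood test, genotype as the only term, Benjamini-Hochberg over 14866 genes, threshold 0.05). The SE of a log2 fold change was derived from the F statistic, as the change over the root of F. RPKM used the deposited gene length. DESeq2 1.42.0 was an alternative. The scripts were tested on simulated data. The common biological coefficient of variation was 11.1%. Between hearts of a genotype, the chi-square of the counts per gene was 6.85 to 13.1, so none was a duplicate. The methods give 3 mice per genotype, so p-values measure the spread between mice.

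The genes and lists were chosen with earlier results of these data known. Values per heart are given for called genes, for the most abundant gene and that of smallest p in each role, and for the PPAR regulators. Hearts are numbered in the order of the labels, which pairs nothing. Further alternatives were RLE or upper-quartile scaling, no low-count filter, a minimum of 10 counts per heart, removal of mitochondrially encoded and globin genes, a robust prior, a looser threshold of 0.1, and removal of each heart in turn. A called gene of the pathway list, counted in its totals, is not reported here.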

Additional observations from a re-analysis of the deposited data

How the results depend on the processing

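All 214 genes called became 403 with DESeq2, 618 with no filter, 402 at an adjusted p under 0.1 and 80 to 158 with 1 heart left out. Of the 41 genes, 4 were called, 9 with DESeq2 (all higher), another set of 9 with no filter (8 higher, and Ppara lower) and 2 to 4 with 1 heart left out. Of the pathway list, 8 were called, and 4 to 6 with 1 heart left out. Members without overlap numbered 17, with 15 higher and 2 lower, where 10% and 9.98% of all tested genes did so. They numbered 18 to 28 with 1 heart left out, where smaller groups overlap less by construction. The share over all genes in those fits is not given here, so that range is not a result about the members. Pnpla2 and Slc27a1 kept their call under all 13 alternatives run per gene, Plin2 under 10 and Ehhadh under 6, lost also with upper-quartile factors and the robust prior.

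With 1 heart left out, log2 fold changes near 0 changed sign in some fits: Cpt1a ran from -4e-04 to 0.1818, Cpt1b from -0.257 to 0.0882, Hadh from -3e-04 to 0.0626, Etfb from -0.0059 to 0.1881, Oxct1 from -0.0041 to 0.0784, Ppargc1a from -0.11 to 0.0481 and Ucp2 from -0.1231 to 0.2824. The cause was not tested. The median of the 41 genes ran from 0.10 to 0.18 over the alternatives, and that of all genes stayed between -0.02 and 0.00. Cpt1b had the fewest counts of the set, 97 to 162 per heart. Its level is uncertain because 81.4% of its exon bases are shared on the same strand with Gm44502. No paired analysis was possible because the hearts share no replicate number in the labels.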
